A study of Arabidopsis thaliana with 12 samples.

Results

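Whole roots of Arabidopsis thaliana carrying the mutation called cngc4 were compared with whole roots of the wild type ws2, using 3 cngc4 arrays and 3 ws2 arrays of the 12 arrays in the series. The other 6 arrays, 3 of cngc1 and 3 of akt1, entered the statistical fit to help estimate the spread, and their levels are given beside the genes described here. The members were all 22746 probe sets that are not array controls. Of these, 14745 were tested, 8132 of the tested ones name 1 gene in the annotation used here, and 1118 have a gene symbol.

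The ws2 plants were of the accession Wassilewskija, with no mutation given in the labels. For cngc4 the labels give only that name: the allele, the seed stock and the accession it was made in are not stated, so a difference of cngc4 from ws2 and a difference between accessions cannot be told apart. The same holds for cngc1, while akt1 is labelled as Wassilewskija. All plants came from a growth room at 80% humidity, were harvested at the growth stage labelled 3.90, and were pooled, 20 to 40 per sample, with no treatment named. The labels do not say that the replicates were grown separately, so the p-values cover only the variation among these arrays, which may be technical. CNGC4 itself was not analysed here, and the cngc4 label was therefore not checked against the targeted gene.

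CNGC4 belongs to the cyclic nucleotide-gated channels, cation channels of the plasma membrane that carry a calmodulin-binding region and are opened or modulated by cyclic nucleotides. In leaves of Arabidopsis it is known for its part in calcium signalling and in the control of immune responses, and plants that lack it are small. Root cells lengthen by loosening their walls, which depends on expansins, xyloglucan endotransglucosylases and a cytoskeleton that guides new wall material. When sugar is short, plant cells instead break down protein and use amino acids, among them leucine, valine and lysine, as a substrate for mitochondrial respiration.

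The signals were of one scale on all arrays, with medians of 44.4 to 46 in cngc4 and 45.9 to 48.5 in ws2, in arbitrary linear units. Background averages on the array ran from 71.4 to 94.5 in cngc4 and from 82.2 to 98.4 in ws2. The ratio of 3-prime to 5-prime signal, a reading of RNA quality, was 1.64 to 1.94 for actin in cngc4 and 1.53 to 1.94 in ws2. For GAPDH it was 1.06 to 1.25 in cngc4 and 1.03 to 1.09 in ws2, and cngc4 replicate 2 had the highest value. The titles mark cngc4 replicate 1 and ws2 replicates 2 and 3 as repeats without saying of what. Root identity could be checked on PYK10, the abundant beta-glucosidase of root ER bodies, which read 2625 ± 288 in cngc4 and 2780.1 ± 141 in ws2 (SD, n = 3 each). The root hair expansin genes EXPA7 and EXPA18 averaged 128 and 175 in cngc4, against 165 and 233 in ws2, with adjusted p = 0.685 and 0.469 in limma. Because the samples were bulk tissue, fewer cells of a type and less RNA per cell cannot be told apart.

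In cngc4 roots 1340 probe sets differed from ws2 in limma at an adjusted p under 0.05, which is 9.09% of those tested. Of these, 692 were higher in cngc4 (4.69%) and 648 were lower (4.39%), with median log2 fold changes of 0.70 and -0.69, against -0.03 over all probe sets tested. Fold changes were taken on the log2(signal + 16) scale, where the added 16 shrinks those of weak probe sets, and their median standard error was 0.16. The 3 cngc4 arrays lay wholly on one side of the 3 ws2 arrays for 1331 of the 1340 called, and for 30.9% of all probe sets tested, 15% with cngc4 higher and 15.9% with cngc4 lower. With 3 arrays against 3, an exact permutation test of a single gene cannot go below p = 0.1. Of the called probe sets 680 name 1 gene, 341 higher and 339 lower, and 660 are unnamed here. By chromosome the share called ran from 6.87% on chromosome 3 to 9.54% on chromosome 4, and was 12.9% among 62 plastid genes, all 8 of whose calls were higher in cngc4.

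**Figure D1:**
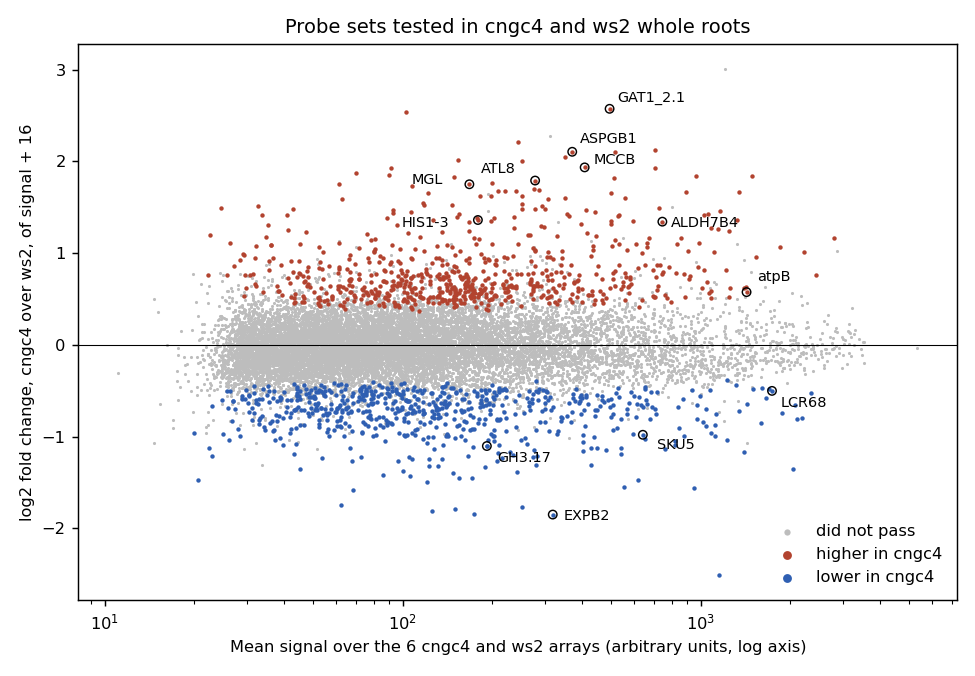
Each point is 1 of 14745 probe sets, with the mean signal of the 6 cngc4 and ws2 arrays on a log axis and the log2 fold change of cngc4 over ws2 on the vertical axis. Red points passed and were higher in cngc4 (692), blue points passed and were lower (648), and grey points did not pass; circled genes are described in the text.

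The number of calls depended on which arrays were in the fit, and among the fits without 1 array it was lowest without cngc4 replicate 2. Without that array 322 probe sets passed, against 987 without cngc4 replicate 1 and 1089 without cngc4 replicate 3. Without ws2 replicates 1, 2 and 3 in turn, 669, 586 and 886 passed. Among the 692 higher probe sets cngc4 replicate 2 was the highest cngc4 array in 527, and among the 648 lower ones it was the lowest in 420. With the repeat mark as a term in the fit 714 probe sets passed. Separate fits held the unmarked arrays (2 of cngc4 and 1 of ws2) or the marked arrays (1 of cngc4 and 2 of ws2). Each also held all cngc1 and akt1 arrays, and took the lone array to vary like the others. The median log2 fold changes of the 1340 were 0.70 and -0.70 in the unmarked arrays and 0.67 and -0.64 in the marked arrays, and these are the arrays on which the 1340 were chosen.

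**Figure D2:**
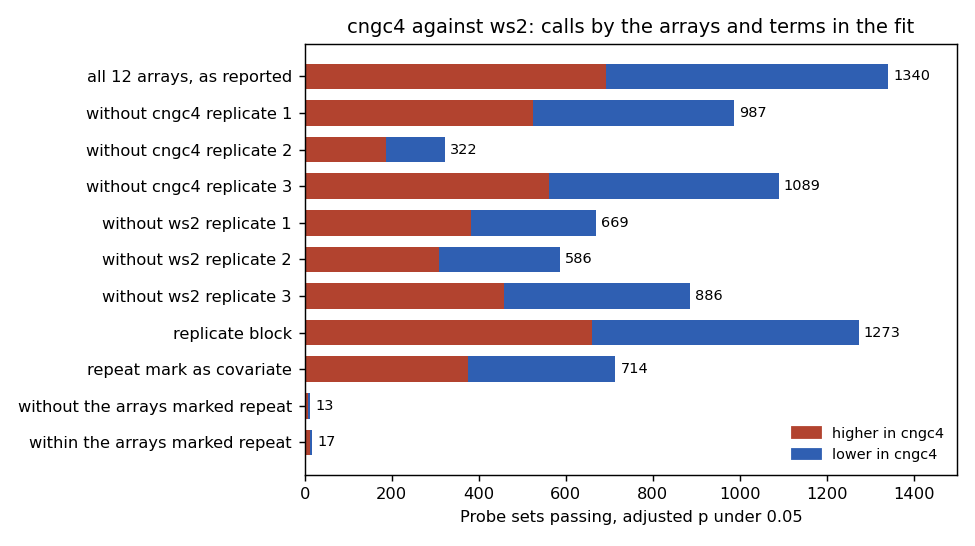
Bars start at 0 and give the probe sets with an adjusted p under 0.05 for cngc4 against ws2, red for higher and blue for lower in cngc4, by the arrays left out or the term added to the fit. The count was 1340 with all 12 arrays, 322 without cngc4 replicate 2, and 13 and 17 in the unmarked and marked arrays alone.

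Genes of amino acid breakdown were higher in cngc4 roots. Of 10 tested genes for the breakdown of branched-chain amino acids and lysine, 6 rose, none fell and 4 did not pass. Their median log2 fold change was 0.77, and over all probe sets tested 4.69% were higher. Both subunits of methylcrotonyl-CoA carboxylase, the mitochondrial enzyme of leucine breakdown, were among the 6 that rose. MCCB (AT4G34030) read 603.5, 811 and 558.5 in cngc4 replicates 1, 2 and 3, against 187, 149.7 and 140.2 in ws2. MCCA (AT1G03090), the biotin-carrying subunit, read 377, 554 and 364 in cngc4 against 129, 107 and 124 in ws2. The lowest cngc4 array was thus well above the highest ws2 array for both subunits, and replicate 2 was the highest cngc4 array. The log2 fold changes were 1.94 (SE 0.18) for MCCB and 1.70 (SE 0.17) for MCCA, each with limma adjusted p = 0.00012.

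IVD (AT3G45300), isovaleryl-CoA dehydrogenase, acts just before methylcrotonyl-CoA carboxylase on leucine. It averaged 284 ± 62.7 in cngc4, 109.7 ± 35.1 in cngc1, 92.5 ± 39.0 in akt1 and 80.3 ± 5.48 in ws2 (SD, n = 3 each). Against ws2 this was 1.62 on the log2 scale, and limma gave adjusted p = 0.000948. ALDH6B2, the methylmalonate-semialdehyde dehydrogenase of valine breakdown, rose by 0.68 on the log2 scale. The lysine genes rose as well. AT4G33150, the bifunctional enzyme that opens lysine breakdown, read 418, 528 and 493 in cngc4 against 259, 256 and 248 in ws2, and ALDH7B4, an aldehyde dehydrogenase acting further along, read 986, 1379 and 875 against 421, 438.5 and 367. Neither pair of groups overlapped, and the log2 fold changes were 0.87 and 1.34.

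The genes that hand electrons from these dehydrogenases to the respiratory chain moved less. ETFBETA had a log2 fold change of 0.39 (adjusted p = 0.0837), ETFQO 0.41 (adjusted p = 0.211) and ETFALPHA 0.00, and D2HGDH, a hydroxyglutarate dehydrogenase that feeds the same carrier, 0.19. None of the 4 passed in limma. In the fits that left out 1 array, 5 members passed without cngc4 replicate 2, where ALDH6B2 missed with 0.55 (adjusted p = 0.0752), and 6 or 7 in the other 5 fits. With the repeat mark as a term 6 passed.

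Another 3 genes for the release of nitrogen from amino acids or related compounds rose, out of 6 tested, with a median over the 6 of 0.90. GAT1_2.1 (AT1G15040), annotated as a glutamine amidotransferase, had the largest log2 fold change of any named gene, 2.57 (SE 0.58, limma adjusted p = 0.0148). It read 801, 1128 and 658 in cngc4 against 131, 138 and 116 in ws2. The levels in cngc1 and akt1 were uneven, at 141, 155 and 8.3 in cngc1 and 169.5, 38.9 and 36.5 in akt1, all under the lowest cngc4 array. Without cngc4 replicate 2 its log2 fold change was 2.37 and it no longer passed (adjusted p = 0.0845). ASPGB1 (AT3G16150), an asparaginase, which splits asparagine into aspartate and ammonium, rose 4.3-fold to 465, 839.7 and 540.1, against 137.5, 138 and 105 in ws2. MGL (AT1G64660), methionine gamma-lyase, rose 3.37-fold, to 264 ± 79.1 in cngc4, against 70.8 ± 34.8 in ws2. The second asparaginase gene, ASPGA1 (0.04), the urease gene URE (-0.06) and ALN, allantoinase (-0.37, adjusted p = 0.065), did not pass. Outside these lists, DELTA-OAT, ornithine aminotransferase of arginine breakdown, rose by 0.67, a call lost without cngc4 replicate 2 or 3 or ws2 replicate 1 or 2, where its log2 fold change was no lower than 0.61.

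**Figure D3:**
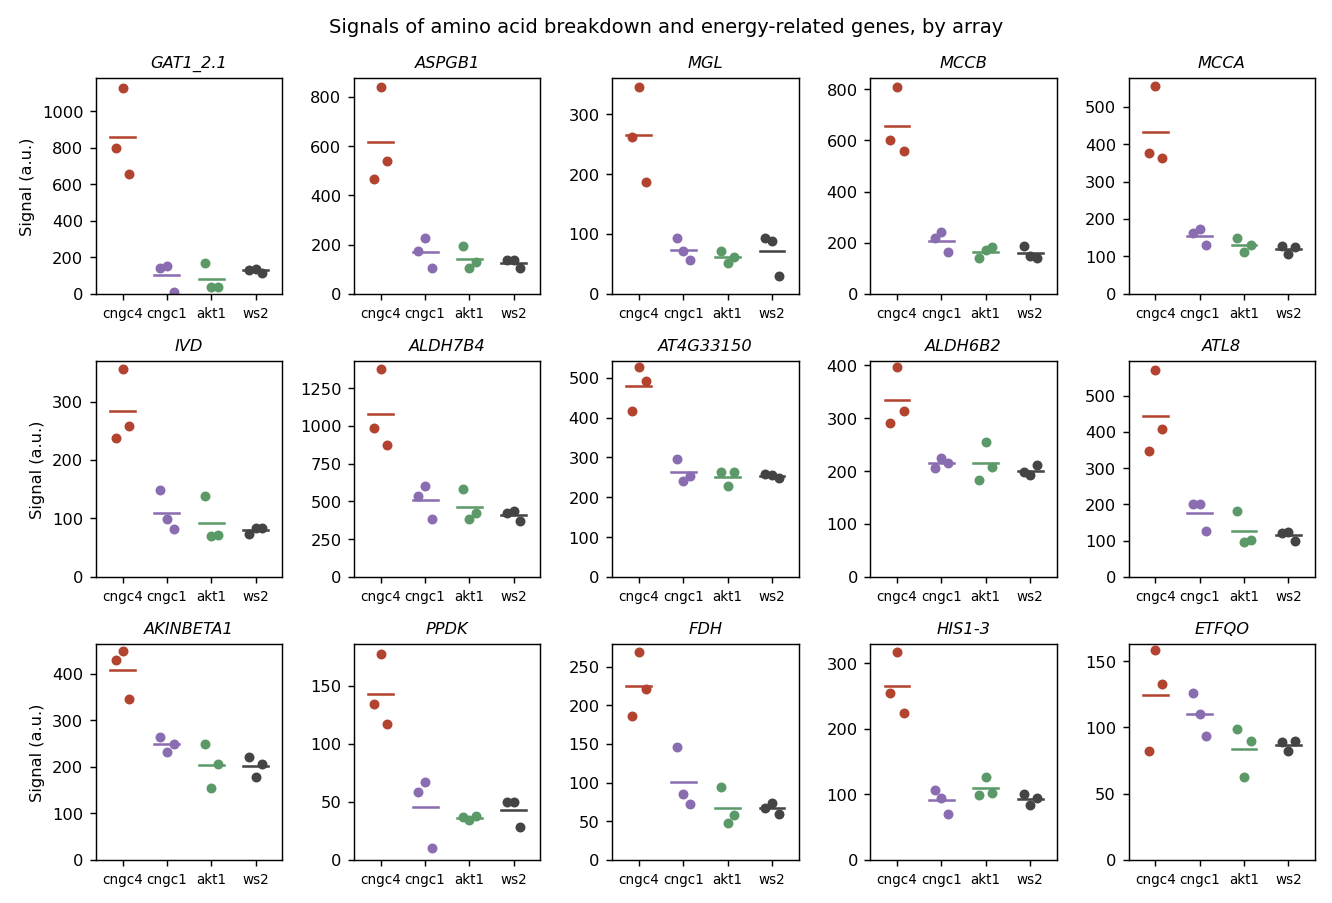
Signals in arbitrary units on linear axes from 0, with 1 point per array and a bar at the mean of 3, for cngc4, cngc1, akt1 and ws2 from left to right. In every panel but ETFQO, which did not pass, the 3 cngc4 arrays lie above the 3 ws2 arrays; GAT1_2.1 reached 1128 in cngc4 replicate 2.

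Of only 3 energy-shortage genes tested 2 rose and none fell, beside 4.69% higher over all probe sets tested. AKINBETA1 (AT5G21170), a regulatory subunit of SnRK1, the kinase that answers to low energy, read 429, 449.6 and 345 in cngc4 against 220.2, 177 and 207 in ws2 (log2 fold change 0.96, limma adjusted p = 0.00248). ATL8 (AT1G76410), a RING-type ubiquitin ligase, rose by 1.79, to 443 ± 116 in cngc4, against 114 ± 13.3 in ws2. It also stood in a list of 11 ATL and PUB ubiquitin ligases, of which the other 10 did not pass. AKINBETA1 and ATL8 passed in all 6 fits without 1 array. BZIP53, a basic leucine zipper factor that acts on amino acid breakdown genes under low energy, had -0.13 (limma adjusted p = 0.65). PPDK, which makes phosphoenolpyruvate from pyruvate, rose by 1.44 and was the only one of 5 glycolysis and fermentation genes to pass. Of 3 genes of fatty acid breakdown and the glyoxylate cycle, SDP1, the lipase that starts the use of stored oil, rose by 0.56. FDH and HPR belong to no list and are named because they passed. FDH (AT5G14780), mitochondrial formate dehydrogenase, read 186, 268 and 221 in cngc4 against 67.5, 74.0 and 59.1 in ws2, a log2 fold change of 1.53. HPR, the peroxisomal hydroxypyruvate reductase of photorespiration, rose by 0.85. Without cngc4 replicate 2, PPDK had 1.29, HPR 0.81 and SDP1 0.47, and none of them passed; SDP1 was also lost without ws2 replicate 1 or 2.

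In each of the other lists linked to low energy or to protein turnover at most 1 gene rose, beside 4.69% higher over all probe sets tested. Among 11 autophagy genes ATG8B alone rose (0.74), with a median over the 11 of 0.14. No member passed among 7 proteases, and of 17 serine carboxypeptidases 4 fell and none rose, beside 4.39% lower over all probe sets tested. The lower carboxypeptidases that passed numbered 4, 0 and 2 without cngc4 replicates 1, 2 and 3, 1, 1 and 2 without ws2 replicates 1, 2 and 3, and 1 with the repeat mark as a term. The peptidase gene TPP2 rose by 0.59, and UBP23, a ubiquitin-specific protease, by 0.60, but TPP2 passed in none of the 6 fits without 1 array (0.55 to 0.64), UBP23 in 1 of them (0.45 to 0.74) and ATG8B in 4 (0.62 to 0.86). The glyoxylate cycle gene ICL was uneven in cngc4, at 252, 125.5 and 32.5 against 40.7, 40.3 and 59.7 in ws2, so its groups overlapped and it did not pass (0.98, adjusted p = 0.268). The low-oxygen genes were uneven in the same way. PDC2, pyruvate decarboxylase, read 398, 375 and 207 in cngc4 against 159, 173 and 251 in ws2, and cngc4 replicate 3 was the lowest of that group for PDC2, CML38 and AT3G10040. None of these 3 passed, and their log2 fold changes ran from 0.47 to 0.68.

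Of 12 nuclear photosynthesis genes, which also serve as markers of shoot tissue, 2 rose, none fell and 10 did not pass. Over all probe sets tested 4.69% were higher, and the arrays of 15% did not overlap with cngc4 higher. The fold change was above 0 for 11 of the 12 genes, and none was at a signal of 0. The arrays of 6 did not overlap between the groups, each with cngc4 higher. LHCB4.1 (AT5G01530), an antenna protein of photosystem II, read 235, 282 and 217.5 in cngc4 against 108, 97.7 and 59.6 in ws2 (log2 fold change 1.34, limma adjusted p = 0.00106). CHLM, the methyltransferase of chlorophyll synthesis, rose by 0.64. RCA, rubisco activase, read 189, 212 and 249 in cngc4 and 156, 162 and 92.2 in ws2 and did not pass (0.63, adjusted p = 0.11). The summed signal of the 12 genes was 1128 to 1612 in cngc4 and 644 to 1073 in ws2. Of the cngc4 arrays replicate 1 had the lowest sum and replicate 3 the highest, and the groups did not overlap. The summed signal of the genes for branched-chain amino acid and lysine breakdown was highest in cngc4 replicate 2, and the part of the photosynthesis shift in their rise was not tested.

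Of 62 plastid-encoded genes 8 rose and 54 did not pass, beside 4.69% higher over all probe sets tested. The fold change was above 0 for 59, with a median of 0.46 on the log2 scale. The arrays of 19 did not overlap between the groups, each with cngc4 higher. Over all probe sets tested the arrays of 15% did not overlap with cngc4 higher. Among those that rose were the ATP synthase subunits atpA (0.77) and atpB (0.58), petB of the cytochrome b6f complex (0.62), psbF and psbH of photosystem II (0.78 and 0.71) and psaB of photosystem I (0.64). atpB read 1668, 1794 and 1658 in cngc4 against 1273, 1210.3 and 959 in ws2, and 848 ± 92.1 in akt1. The plastid sum ran from 23624 to 33299 in cngc4 and from 16972 to 22426 in ws2. The number passing was unsteady: 18 without cngc4 replicate 1, 0 without cngc4 replicate 2, 5 without cngc4 replicate 3, 4, 5 and 0 without ws2 replicates 1, 2 and 3, and 1 with the repeat mark as a term. Of 12 mitochondria-encoded genes cox1 (0.55) and nad4L (0.54) rose, and neither passed without cngc4 replicate 1 or 2 or any ws2 array. Single nuclear genes for plastid functions that belong to no list, named because they passed, were GSA1, an early enzyme of tetrapyrrole synthesis (0.46), AT1G74470, geranylgeranyl reductase (0.52), ATPC1, the gamma subunit of plastid ATP synthase (0.58), and PSB27 of photosystem II assembly (0.72). Each of these 4 passed in at most 1 of the 6 fits without 1 array, and none passed without cngc4 replicate 2.

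Members of several families of cell wall genes were lower in cngc4 roots. Over all probe sets tested 4.39% were lower and 4.69% higher. Of 13 expansins, which loosen walls during growth, 4 fell, 1 rose and 8 did not pass, and 11 of the 13 had a negative log2 fold change (median -0.53). EXPB2 (AT1G65680) was lowest, at 139, 107 and 144 in cngc4 against 518, 534 and 472 in ws2. No cngc4 array came near the ws2 arrays, and the log2 fold change was -1.85 (SE 0.27, limma adjusted p = 0.00105), 3.61-fold lower. In akt1 EXPB2 lay between, at 320.4, 340.3 and 381. In cngc1 it read 199, 497 and 173, so that a single cngc1 array lay among the ws2 arrays. EXPA8 (-0.92), EXPB3 (-0.81) and EXPB1 (-0.72) fell with adjusted p = 0.041, 0.0496 and 0.0396 in limma. EXLB1 (AT4G17030), an expansin-like gene, went the other way, at 216, 331 and 158 in cngc4 against 73.6, 72.8 and 74.9 in ws2 (1.43, adjusted p = 0.00118). Without cngc4 replicate 1 the lower expansins that passed numbered 5, and without ws2 replicate 3 they numbered 2. EXPB2 was the only one to pass when cngc4 replicate 2 or 3 or ws2 replicate 1 or 2 was left out, and EXLB1 passed in all 6 such fits.

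Xyloglucan endotransglucosylases, which cut and rejoin the xyloglucan chains between cellulose fibrils, showed the same split. XTH20 (-0.83), XTH18 (-0.72) and XTH19 (-0.71) fell among 9 tested, and EXGT-A3, also called XTH27, rose by 0.81. XTH20 read 124, 86.0 and 126 in cngc4 against 233, 210.4 and 186 in ws2, without overlap. XTH16 (-0.69), XTH21 (-0.59) and XTH32 (-0.58) did not pass. Lower members passing numbered 1 without cngc4 replicate 1 or 2 or ws2 replicate 1 or 2, 4 without cngc4 replicate 3, and 2 without ws2 replicate 3. XTH20 passed in all 6 fits without 1 array, XTH19 in 2 and XTH18 in none. EXGT-A3 did not pass without cngc4 replicate 2 or ws2 replicate 1. Among 9 endoglucanases of family GH9 all 9 had a negative log2 fold change. Only GH9B13 fell (-1.07, limma adjusted p = 0.0488), beside 4.39% lower over all probe sets tested. Its call was lost in every fit without 1 array.

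Of 29 genes for wall polysaccharides and their acetylation 6 fell and none rose, beside 4.39% lower over all probe sets tested. All 6 were TRICHOME BIREFRINGENCE-LIKE genes, a family with members that add acetyl groups to wall polymers: TBL36, TBL19, TBL30, TBL34, TBL38 and TBL45, with log2 fold changes from -0.78 to -0.49. TBL19 read 26.7, 28.3 and 32.7 in cngc4 against 56.3, 55.5 and 62.6 in ws2, weak signals that did not overlap. TBL36, a stronger one, read 391.5, 267 and 313 in cngc4 against 559.5, 591 and 531 in ws2. The cellulose-related COB (-0.32) and the xylan gene GUT2 (-0.32) did not pass, and the count was 4, 2, 4, 4, 5 and 3 when cngc4 replicates 1, 2 and 3 and ws2 replicates 1, 2 and 3 were left out in turn. SKU5 (AT4G12420), a membrane-anchored wall protein needed for straight root growth, averaged 428 ± 85.1 in cngc4, 643 ± 87.8 in cngc1, 747 ± 63.6 in akt1 and 853 ± 119.6 in ws2 (log2 fold change -0.98, limma adjusted p = 0.00242). AT5G66390 alone of 5 class III peroxidases passed, and it fell by 0.71. It did not pass without cngc4 replicate 2 or ws2 replicate 3 (range without 1 array -0.79 to -0.61). Its cngc1 mean, 307 ± 42.6, lay below the cngc4 mean of 332 ± 38.8. Of the 5 peroxidases 2 had a positive log2 fold change, among them AT5G64120 (1.16, limma adjusted p = 0.328).

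**Figure D4:**
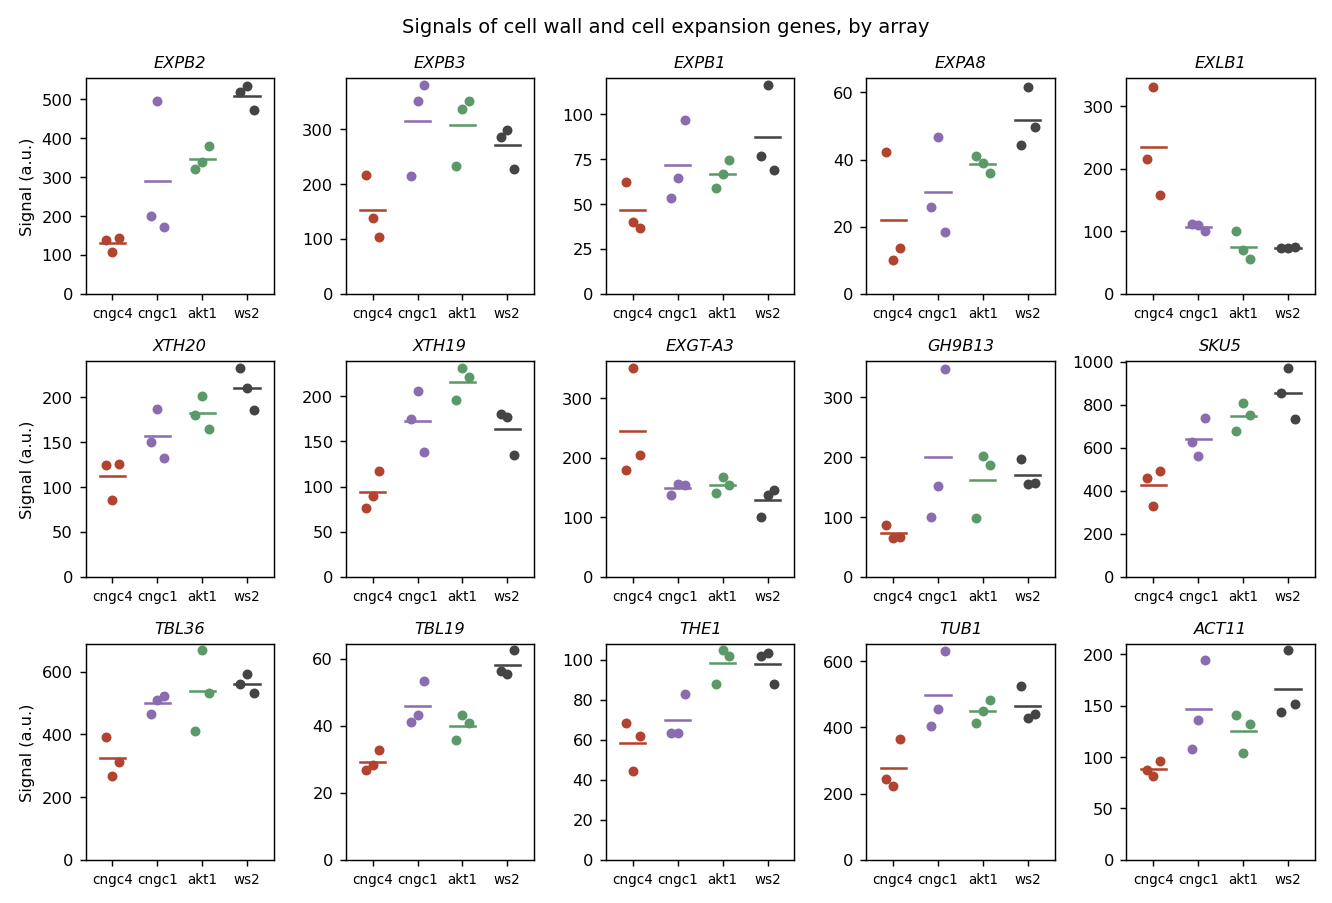
Signals in arbitrary units on linear axes from 0, with 1 point per array and a bar at the mean of 3, for cngc4, cngc1, akt1 and ws2 from left to right. Apart from EXLB1 and EXGT-A3, which were higher, the cngc4 arrays lie below the ws2 arrays in every panel; EXPB2 averaged 130.2 in cngc4 and 508 in ws2.

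A few genes of the cytoskeleton and of signalling at the wall fell too. TUB1, a beta-tubulin, read 244, 222 and 366 in cngc4 against 524, 427 and 439.9 in ws2 (-0.74), and ACT11, an actin, read 87.9, 81.6 and 95.9 against 144, 204 and 152 (-0.79). They were 2 of 12 tubulin, actin and related genes, the rest of which did not pass, beside 4.39% lower over all probe sets tested. The SPIRAL1-like genes SP1L2 (-0.78) and SP1L5 (-0.70), relatives of a protein that sits on cortical microtubules, fell too, as did the actin-binding NET2D (-0.59), while NET4B, of the same family, rose by 0.74. None of these 6 passed without cngc4 replicate 2, and SP1L2 and NET2D passed in none of the fits without 1 array. TUB1 and SP1L5 passed in 2 of those 6 fits, ACT11 in 4 and NET4B in 5. THE1 (AT5G54380), a receptor kinase that monitors wall integrity, read 68.3, 44.4 and 62.0 in cngc4 against 102, 104 and 88.2 in ws2 (log2 fold change -0.63, limma adjusted p = 0.0156). It did not pass without cngc4 replicate 2 (-0.49), ws2 replicate 1 (-0.60) or ws2 replicate 2 (-0.59). FER, a related receptor kinase, was level at 0.08. Beside these wall and growth genes stood the photosynthesis marker sum given above, 1128 to 1612 in cngc4 and 644 to 1073 in ws2, and its part in their fall was not tested.

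Of 8 genes for signalling peptides 2 fell and the rest did not pass, beside 4.39% lower over all probe sets tested. They were RALFL24 (-0.74), of a family that includes ligands of FER, and CLE41 (-0.56), which keeps vascular stem cells dividing. AT4G28650, named PXY-like2 in the gene table, fell by 0.63. The cell division kinase AUR1 fell by 0.45, the only one of 13 mitosis, replication and histone genes to fall. These 4 calls were all lost without cngc4 replicate 2 or ws2 replicate 1 or 2. HIS1-3 (AT2G18050), a linker histone known to accumulate under drought, was the only one of the 13 to rise, beside 4.69% higher over all probe sets tested. It read 255, 317 and 223 in cngc4 against 100.0, 83.2 and 94.8 in ws2, 2.57-fold higher with limma adjusted p = 0.000276, and it passed in all 6 fits without 1 array.

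Calcium-related genes are the group closest to what is known of the CNGC family. Of 20 tested, 1 rose, 3 fell and 16 did not pass, with a median of -0.14; over all probe sets 4.69% were higher and 4.39% lower. The 3 that fell were IQD26 (-0.68), IQD23 (-0.48) and IQD31 (-0.44), of a family of calmodulin-binding proteins. IQD23 read 54.8, 44.5 and 52.8 in cngc4 against 77.7, 74.6 and 79.1 in ws2, with no overlap. All 3 calls were lost without cngc4 replicate 2 and with the repeat mark as a term, and none passed without ws2 replicate 1 or 2. The gene that rose was STZ (AT1G27730), a zinc finger repressor induced by many stresses, at 267, 300.2 and 185 in cngc4 against 127, 115 and 108 in ws2 (0.99, adjusted p = 0.0129); without cngc4 replicate 2 it had 0.85 (adjusted p = 0.0866). Among those that did not pass were the calmodulin-like CML23 (-0.52) and CML41 (-0.17), and 2 channels related to glutamate receptors, GLR3.3 (0.15) and GLR1.4 (-0.20).

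Salicylic acid-dependent immunity is known to be raised in leaves of plants that lack CNGC4. In these roots none of 5 salicylic acid and defence signalling genes passed, beside 4.69% higher and 4.39% lower over all probe sets tested. For so few genes no call lies close to those shares. Their log2 fold changes lay between 0.01 and 0.51, the highest being that of the defensin gene PDF1.2b. WRKY53 read 49.3, 48.3 and 46.7 in cngc4 against 38.9, 43.9 and 51.3 in ws2, groups that overlapped. BIK1, a kinase below immune receptors, read 205, 208.7 and 201 in cngc4 against 175, 131 and 164 in ws2, and did not pass (0.36, adjusted p = 0.0901). The defensin gene PDF1.4 averaged 206 ± 84.8 in cngc4 and 84.1 ± 13.7 in ws2 without passing (1.10, adjusted p = 0.0845), while LCR68, also called PDF2.3, fell by 0.50 and passed in none of the fits without 1 array (-0.53 to -0.48). No member passed among 14 genes of beta-glucosidases, ER bodies and jacalins, 5 WRKY factors, 9 bZIP factors, 4 jasmonate genes or 8 cytochromes P450. The share that passed over all probe sets tested was 9.09%.

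Hormone genes gave a few single changes, beside 4.69% higher and 4.39% lower over all probe sets tested. The gibberellin receptor genes GID1A and GID1B both rose, by 0.68 and 0.72, and both passed in all 6 fits without 1 array. GID1A read 147, 145 and 110.2 in cngc4 against 80.4, 78.4 and 72.6 in ws2, and 84.5 ± 2.52 in cngc1 and 75.0 ± 5.86 in akt1. The third receptor gene, GID1C, had 0.32 and did not pass. GH3.17 (AT1G28130), which joins auxin to glutamate and so removes it from the active pool, fell by 1.10 on the log2 scale, at 142, 98.4 and 109.5 in cngc4 against 256, 247 and 297 in ws2, and the only one of 7 auxin genes to pass. RTE1, which promotes the signalling of an ethylene receptor, rose by 0.94, and BAT1, an acyltransferase acting on brassinosteroids, fell by 0.61. Among the abscisic acid and dehydration genes DI19 alone of 7 rose (0.63). RTE1 passed in 2 of the 6 fits without 1 array (0.79 to 1.12), BAT1 in 2 (-0.73 to -0.43) and DI19 in 4 (0.51 to 0.72), and none of the 3 without cngc4 replicate 2.

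The calls among detoxification and transport genes are given by list, beside 4.69% higher and 4.39% lower over all probe sets. Of 12 glutathione transferases GSTU28 (-1.12) and GSTU20 (-1.04) fell, and GSTU16 rose by 0.79 from weak signals, at 61.2, 50.9 and 63.1 in cngc4 against 29.8, 29.6 and 21.8 in ws2. GSTU28 and GSTU20 passed in all 6 fits without 1 array and GSTU16 in none. Of 26 glycosyltransferases UGT73B1 (0.74) and UGT87A2 (0.67) rose and UGT72E3, which glucosylates lignin precursors, fell by 0.87. The phenylpropanoid gene CCOAMT, annotated as a caffeoyl-CoA methyltransferase, rose by 1.22, at 121, 213.5 and 128 in cngc4 against 54.4, 55.5 and 54.6 in ws2. FACT, which joins caffeate to fatty alcohols in the waxes of suberised roots, fell by 0.59. Among 14 sugar transporters the vacuolar SWEET2 rose by 0.54, and the sucrose exporter SWEET13 (-0.82) and the vacuolar monosaccharide carrier TMT2 (-0.75) fell. In nutrient metabolism APS4, an ATP sulfurylase, rose by 0.67, and bHLH121, a regulator of iron uptake, by 0.72. Without cngc4 replicate 2 the calls of UGT73B1 (0.73), CCOAMT (0.99), SWEET2 (0.40), APS4 (0.67), bHLH121 (0.54), UGT72E3 (-0.74) and TMT2 (-0.71) were lost. Of the 6 fits without 1 array, UGT73B1 and CCOAMT passed in 5 and bHLH121 in 3. APS4, UGT72E3 and TMT2 passed in 2, SWEET2 in 1 and FACT in none. STR18, a sulfurtransferase, was 2.3-fold higher, at 376 ± 80.5 in cngc4, 213 ± 49.6 in cngc1, 253 ± 46.1 in akt1 and 152 ± 3.47 in ws2.

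**Figure D5:**
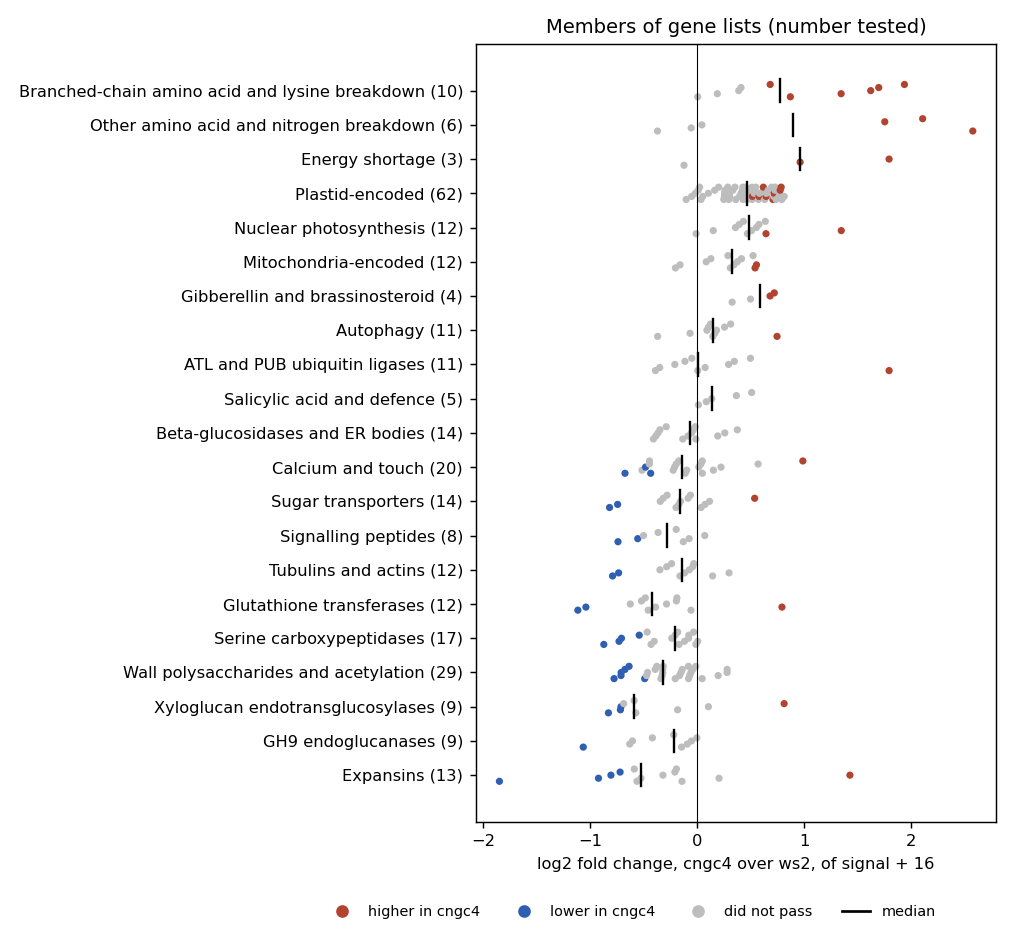
Each point is a tested gene of the list named on the left, with the number tested in brackets, placed by its log2 fold change of cngc4 over ws2; red and blue points passed, grey points did not, and black bars are medians. The amino acid breakdown genes reach 2.57 to the right and the expansins -1.85 to the left, and the median over all probe sets tested was -0.03.

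In all, 62 lists had a tested member. A member rose in 25 of them and fell in 17, and no member passed in 27. The lists held 486 different genes, of which 43 rose (8.85%) and 35 fell (7.2%), against 4.69% and 4.39% of all probe sets tested. The lists were drawn up with earlier results of these data known, so nothing is read from that difference. Genes outside the lists with a symbol were taken up because they passed, after their values were seen. Regulators among them that rose were AT5G61590, named Decrease Wax Biosynthesis in the gene table (1.31), the ARGOS-like growth gene ARL (1.03), the chromatin remodeller INO80 (0.50), SEC, which attaches sugar residues to proteins (0.73), the SUMO ligase SIZ1 (0.41) and AT5G47390, named KUODA1 (0.62). AT5G61590 passed in all 6 fits without 1 array, and the others in at most 1 and not without cngc4 replicate 2.

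Most of the largest changes belong to genes known here by locus number only, to which no function is given. Of the 30 largest increases 19 and of the 30 largest decreases 27 have no symbol. AT1G74460 had the smallest adjusted p among the lower ones, 0.00012, at 225, 223 and 274 in cngc4 against 585, 626 and 647 in ws2. AT2G46220 read 571, 723 and 551 in cngc4 against 211, 221.5 and 199 in ws2 (1.47, adjusted p = 0.000145). Both kept their calls in all 19 planned settings. Among the strongest signals, AT3G15450 read 3221, 3431.5 and 2621 in cngc4 against 1683, 1773 and 1964 in ws2 (0.76), and AT4G16260 read 2793, 3354 and 2795.5 against 1531, 1364 and 1501 (1.01). AT3G15450 did not pass without cngc4 replicate 2 (0.68), and AT4G16260 in none of the fits without 1 array (0.93 to 1.06). The akt1 levels of AT4G16260 were 2851, 1199 and 1159, so that a single akt1 array lay among the cngc4 arrays.

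The comparisons of cngc4 with akt1 and with cngc1 share the cngc4 arrays with the comparison to ws2, so their values are given side by side only. Over all probe sets 1310 passed between cngc4 and akt1 (8.88%) and 762 between cngc4 and cngc1 (5.17%). MCCB had log2 fold changes of 1.88 against akt1 and 1.59 against cngc1 (adjusted p = 0.000143 and 0.000604). EXPB2 had -1.32 against akt1 (adjusted p = 0.00843) and -0.92 against cngc1, where it did not pass (adjusted p = 0.058). HIS1-3 passed in both (adjusted p = 0.000989 and 0.000677). AT3G05950, raised in cngc4 over ws2 by 1.43, averaged 1565 ± 478 in cngc4, 1336 ± 307 in cngc1, 1034 ± 199 in akt1 and 558 ± 46.4 in ws2, and it passed against neither (adjusted p = 0.105 against akt1 and 0.595 against cngc1).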

How the data were processed

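The deposited table holds 1 signal intensity per probe set and array for 12 single-colour GeneChips of 22810 probe sets, hybridised with biotin-labelled RNA per the labels' protocols. The authors had scaled the intensities before deposit, since the trimmed mean was the same on every array, and the sources used here do not give the software. Probe sets above the 40th percentile of an array on at least 3 arrays were kept, 16 was added, and log2 values were fitted with limma 3.58.1 in R 4.3.3: 4 group means over 12 arrays, a mean-variance trend, and Benjamini-Hochberg adjustment over 14745 probe sets with a threshold of 0.05. A signal compares arrays for 1 probe set, not genes with each other, and the number of arrays limits the precision.

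Groups and replicates follow the labels. No 2 arrays were identical. The table pairing probe sets with genes names 1 gene for 13513 probe sets, several for 503 and none for 8794, and 13436 were found in the TAIR10.1 gene table, from which symbols come. Coordinates and sequences were not used here. For a gene with several probe sets, the one of highest mean signal stood in its list.

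Genes were named by rule: among called probe sets of 1 gene with no overlap of arrays, the 30 largest changes in each direction and the 5 smallest adjusted p, the 10 called genes of highest signal, and up to 6 called members in each direction and 2 others of each list. The comparison, the lists and the alternatives were chosen with earlier results of these data known. The fit was tested on simulated data. The same-number correlations of cngc4 and ws2 arrays ran from -0.17 to 0.04, none above 0.1, so the numbers were not taken to pair the samples.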

Additional observations from a re-analysis of the deposited data

How the results depend on the processing

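The count of 1340 probe sets, 692 higher and 648 lower, stayed within 1.5 times under quantile normalization, median centring, no offset, an offset of 64, a 60th-percentile filter, no trend, robust estimation and a fit on only the 6 arrays. It moved to 813 (449 higher and 364 lower) with no filter, to 2364 (1127 and 1237) with array weights, to 714 (375 and 339) with the repeat mark as a term, and to 259 (166 and 93) when calls needed a 2-fold change and an unadjusted p under 0.05, where 64.1% were higher. Leaving out 1 array at a time gave 322 to 1089 calls, 187 to 561 higher and 135 to 528 lower. Chosen after seeing the data, the arrays not marked as repeats gave 13 (7 and 6) and the marked ones 17 (12 and 5), with fewer samples. Also chosen then, centring on the median of all probe sets that are not controls gave 1285 calls with 804 higher and 481 lower, so 62.6% were higher, against 52.4% with quantile normalization. The cause of these moves was not tested, and some of these fits held fewer samples. With the replicate number as a block, a pairing the samples do not bear out, 1273 passed (660 and 613). Of 184 called genes followed, 53 passed in all 19 planned settings and 67 in all 6 fits without 1 array. Probe sets of low signal limit the depth: 57 of the higher ones were low in ws2 and 80 of the lower ones low in cngc4, so their fold changes are not exact.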
